A study of Mus musculus with 12 samples.

Results

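The 45 genes described here encode the proteins that license replication origins, unwind and copy DNA, supply nucleotides and pass chromatin on during S phase. They were chosen by symbol and matched to Ensembl gene identifiers in a table of 55421 genes measured by bulk RNA-seq in 12 mice, and all 45 passed the filter on low counts that left 15999 genes for testing. The cells came from mouse bone marrow and had been flow sorted as endothelial cells, with 1 library per mouse and 3 mice per group, all 20 weeks old. Naive controls were untreated C57BL/6J mice. The hypertension group were C57BL/6J mice given angiotensin II over a long period, which the study's methods say came from an implanted pump. The MI group were C57BL/6J mice 2 days after a myocardial infarction according to the labels, while the study's text names a later day. The atherosclerosis group carried the *Apoe*(tm1Unc) null allele in every cell and, according to the study's methods, ate a western diet, so that genotype and diet cannot be told apart. No label names a saline pump or sham operation among the controls.

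A cell copies its genome once per division. In G1 the origin recognition complex, CDC6 and CDT1 load the MCM helicase onto DNA. CDC45 and the GINS complex then switch the helicase on, polymerases and the sliding clamp PCNA follow, and most of these genes are switched on together by E2F factors as a cell commits to S phase. In adult bone marrow most endothelial cells rest, while precursors of blood cells divide continuously.

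The libraries held 17007088 to 25136936 counts, so that 3 counts corresponded to 0.119 to 0.176 CPM (read counts scaled to library size). The targeted gene checked the labels: *Apoe*, at chr7:19696109-19699188 in GRCm38.p6, stood at 781 ± 98.4 CPM in controls and 10.6 ± 3.81 CPM in the knockout libraries (mean ± SD, n = 3 each). The labelled cell type was checked against its markers. *Cdh5*, which encodes VE-cadherin, stood between 2.00 and 4.18 CPM and *Pecam1* (CD31) between 17.2 and 31.7 CPM. *Ptprc* encodes CD45, on which the sort selected against, and it stood between 463 and 813 CPM. The 21 endothelial markers summed to 194.3 to 348 CPM, the 10 markers of maturing neutrophils to 24140 to 84390 CPM and the 14 erythroid markers to 10650 to 45300 CPM. The summed neutrophil and erythroid markers thus exceeded the summed endothelial markers in every library, and the replication genes are described as levels in sorted marrow libraries. In such bulk samples fewer dividing cells and less RNA per dividing cell cannot be told apart.

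The sequence around the start of these genes was read from RefSeq promoter windows of 300 bases (250 before to 50 after a gene's start, build GRCm38.p6). Of the 45 members, 36 had such a window. The 8-base forms of the E2F recognition sequence TTTCCCGC, TTTCGCGC, TTTGCCGC and TTTGGCGC were searched on both strands. At least 1 of them occurred in 16 of the 36 members (44.4%), against 2.6% of all 27025 genes with a window. Counted by window, the share was 37.2% of 43 member windows and 2.26% of all 32851. Among the 36 members, 6 held 2 or more matches, against 0.107% of all genes, and 4 of those 6 encode subunits of the MCM helicase. A match describes letters and is not a binding site shown by an experiment. These stretches are printed because they hold every match of those 6 genes and of the licensing factors *Cdc6* and *Cdt1*. They are written 5′ to 3′ on the gene's own strand, with the matches in capitals. They lie at chr1:20820263-20820382 on the minus strand (*Mcm3*), chr8:75109302-75109421 on the plus strand (*Mcm5*), chr1:128359721-128359840 on the minus strand (*Mcm6*), chr5:138171850-138172058 on the minus strand (*Mcm7*), chr5:151651159-151651278 on the minus strand (*Rfc3*), chr9:20952574-20952853 on the minus strand (*Dnmt1*), chr11:98907957-98908076 on the plus strand (*Cdc6*) and chr8:122567945-122568064 on the plus strand (*Cdt1*).
Mcm3: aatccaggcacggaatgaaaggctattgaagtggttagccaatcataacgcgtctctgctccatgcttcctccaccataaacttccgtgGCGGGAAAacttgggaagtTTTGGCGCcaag
Mcm5: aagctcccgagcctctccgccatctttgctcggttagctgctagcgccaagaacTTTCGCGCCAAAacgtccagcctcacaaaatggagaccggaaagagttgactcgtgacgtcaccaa
Mcm6: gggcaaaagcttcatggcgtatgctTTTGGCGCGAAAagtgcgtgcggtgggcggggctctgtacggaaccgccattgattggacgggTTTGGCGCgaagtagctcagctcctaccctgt
Mcm7: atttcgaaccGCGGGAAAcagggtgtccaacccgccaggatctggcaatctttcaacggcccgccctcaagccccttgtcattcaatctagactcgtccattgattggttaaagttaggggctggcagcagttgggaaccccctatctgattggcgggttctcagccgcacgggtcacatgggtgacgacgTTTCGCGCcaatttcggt
Rfc3: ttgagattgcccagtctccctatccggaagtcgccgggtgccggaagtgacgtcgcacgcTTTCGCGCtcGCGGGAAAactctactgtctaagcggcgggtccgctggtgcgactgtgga
Dnmt1: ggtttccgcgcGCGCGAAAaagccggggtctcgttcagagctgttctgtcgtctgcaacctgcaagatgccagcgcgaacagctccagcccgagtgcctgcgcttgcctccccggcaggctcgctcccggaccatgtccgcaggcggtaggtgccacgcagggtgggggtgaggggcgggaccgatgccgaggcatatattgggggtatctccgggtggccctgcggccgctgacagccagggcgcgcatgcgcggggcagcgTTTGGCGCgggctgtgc
Cdc6: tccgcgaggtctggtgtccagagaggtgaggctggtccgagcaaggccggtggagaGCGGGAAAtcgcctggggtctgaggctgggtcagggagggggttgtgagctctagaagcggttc
Cdt1: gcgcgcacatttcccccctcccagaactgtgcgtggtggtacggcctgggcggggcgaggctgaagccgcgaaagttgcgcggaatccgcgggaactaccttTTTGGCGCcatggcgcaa
In *Mcm5* a match on each strand shares bases, so that 1 run of capitals holds both, and the first run of *Mcm6* is built the same way. *Rfc3* carries its pair of matches 2 bases apart, directly at the gene's start, whereas those of *Mcm7* and *Dnmt1* lie at opposite ends of the stretch. The other members with 1 match were *Orc1*, *Lig1*, *Pold1*, *Pold3*, *Gins3*, *Pole2*, *Uhrf1* and *Pola1*. *Fen1*, *Tyms*, *Rfc4*, *Pcna*, *Rrm2* and *E2f1* held none of these letters in their windows, and *Ccne2*, *Mcm4*, *Gins1*, *Gins2*, *Gins4*, *Rfc2*, *Prim2*, *Pole* and *Gmnn* had no window.

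The replication genes were expressed well above the typical gene. Per kilobase of exon, the median member stood at 31.6 CPM and the median tested gene at 3.41 CPM, and 43 of the 45 lay above the median gene. *Rrm2*, the small subunit of ribonucleotide reductase, was the highest at 772 CPM per kb (percentile 99.7 of tested genes), ahead of the clamp loader subunit *Rfc4* at 198 and the helicase subunit *Mcm6* at 107 CPM per kb. The lowest were *Ung*, a uracil-DNA glycosylase, at 0.676 CPM per kb (percentile 22.3) and *Pole*, the catalytic subunit of polymerase epsilon, at 2.96 CPM per kb (percentile 47.3). Levels of the 6 MCM ring subunits ran from 49.4 CPM per kb for *Mcm2* to 107 for *Mcm6*. The members also varied less across the 12 libraries than the typical gene did, in a comparison that was not matched for level. The highest library exceeded the lowest by a median of 1.6-fold over the members and 2.23-fold over all tested genes. *E2f1* and *Lig1* were the steadiest at 1.28-fold, and *Fen1* (3.92-fold) and *Rfc4* (3.52-fold) spread the most. In all, the 45 genes took 0.75% to 1.04% of a library's counts, the highest share being in hypertension replicate 2 and the lowest in MI replicate 2.

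**Figure D1:**
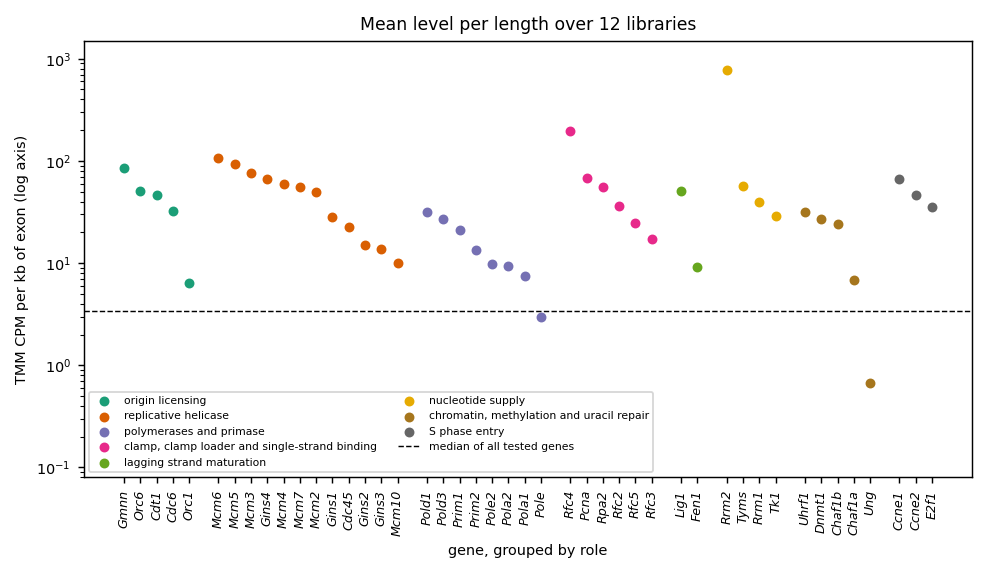
Mean level of each replication gene over the 12 libraries, in TMM-normalised CPM per kilobase of exon on a log axis, grouped by role along the horizontal axis. The dashed line is the median of all tested genes at 3.41 CPM per kb, and *Ung* and *Pole* are the members below it.

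A few of these levels depend on how the reads were counted. STAR's gene counts leave out a read that overlaps exons of more than 1 gene, and the deposited table behaved as counting without regard to strand would. Among 439 genes whose exons lie wholly under exons of the opposite strand, 436 were at 0 in every library, including the protein-coding gene *Pdcd2*, an example chosen after its value was seen. *Fen1* shares 84.2% of its exonic bases with antisense neighbours (*Gm10143* and *Tmem258*), which leaves 383 of 2422 bases to count, and per kilobase of those bases its level was 57.7 CPM in place of 9.12. *Gins2* (67.3%, under *Gse1*) and *Chaf1a* (52.5%, under *Ubxn6*) were affected in the same way, and *Ccne2*, *Rfc2*, *Rfc4*, *Mcm7*, *Orc1* and *Rfc5* shared 10.7% to 17.4% of their bases with other genes. Other annotated genes of the same strand held 19.1% of the 50-base words of *Pcna* (in *Pcna-ps2*), 18.1% of those of *Mcm7* (in *Gm5487* and in the microRNA genes *Mir93* and *Mir25*, which lie within *Mcm7* itself) and 15.4% of those of *Uhrf1* (in *Gm5648* and *Gm15953*), so that the counts of these members are uncertain.

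The study asked how hypertension, atherosclerosis and MI each change gene expression in the marrow relative to naive controls. No replication gene passed an adjusted p of 0.05 against controls in any disease by the quasi-likelihood test of edgeR, adjusted by Benjamini-Hochberg over all tested genes. The share of all genes that passed was 0% in hypertension, 0.144% in atherosclerosis and 0% in MI. The lowest Benjamini-Hochberg adjusted p of any member by edgeR was 0.951 in hypertension, 0.893 in atherosclerosis and 1 in MI. At an unadjusted p under 0.05 by the same test, 3 members passed in hypertension (6.67%, against 3.71% of all genes), 0 in atherosclerosis (5.97% of all genes) and 0 in MI (2.8% of all genes). The edgeR likelihood-ratio test and DESeq2 also called 0 members in each comparison. The standard error of a member's log2 fold change had a median of 0.16, and the 95% interval lay within a 2-fold change in either direction for 42 of 45 members in hypertension, 43 in atherosclerosis and 45 in MI. Changes beyond 2-fold were therefore outside the interval for most members, and intervals of this width do not show that the levels were equal.

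What varied was the direction. Against controls, 39 of 45 members had a log2 fold change above 0 in hypertension, where 48.1% of all genes did, and the median member was at 0.10 against -0.01 for all tested genes. In MI 11 of 45 members were above 0, where 50% of all genes were, with a median of -0.11 against 0 for all genes. In atherosclerosis the median was -0.01, against 0.01 for all genes. Averaged over the 45 genes, the log2 level relative to the control mean was 0.187, 0.151 and 0.135 in hypertension replicates 2, 3 and 4. In MI the same average was -0.143, 0.006 and -0.153, in atherosclerosis 0.003, 0.001 and -0.034, and in controls -0.007, -0.078 and 0.085. By this average all 3 hypertension libraries lay above all controls, the MI libraries overlapped the controls, and the atherosclerosis libraries lay within the control range. By the summed CPM of the 45 genes hypertension overlapped the controls. Hypertension replicates 2, 3 and 4 summed to 10275, 9887 and 9598 CPM, and control replicates 2, 3 and 4 to 8593, 8128 and 9632 CPM. The members share the same libraries, so these averages and sums are a description and carry no test.

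**Figure D2:**
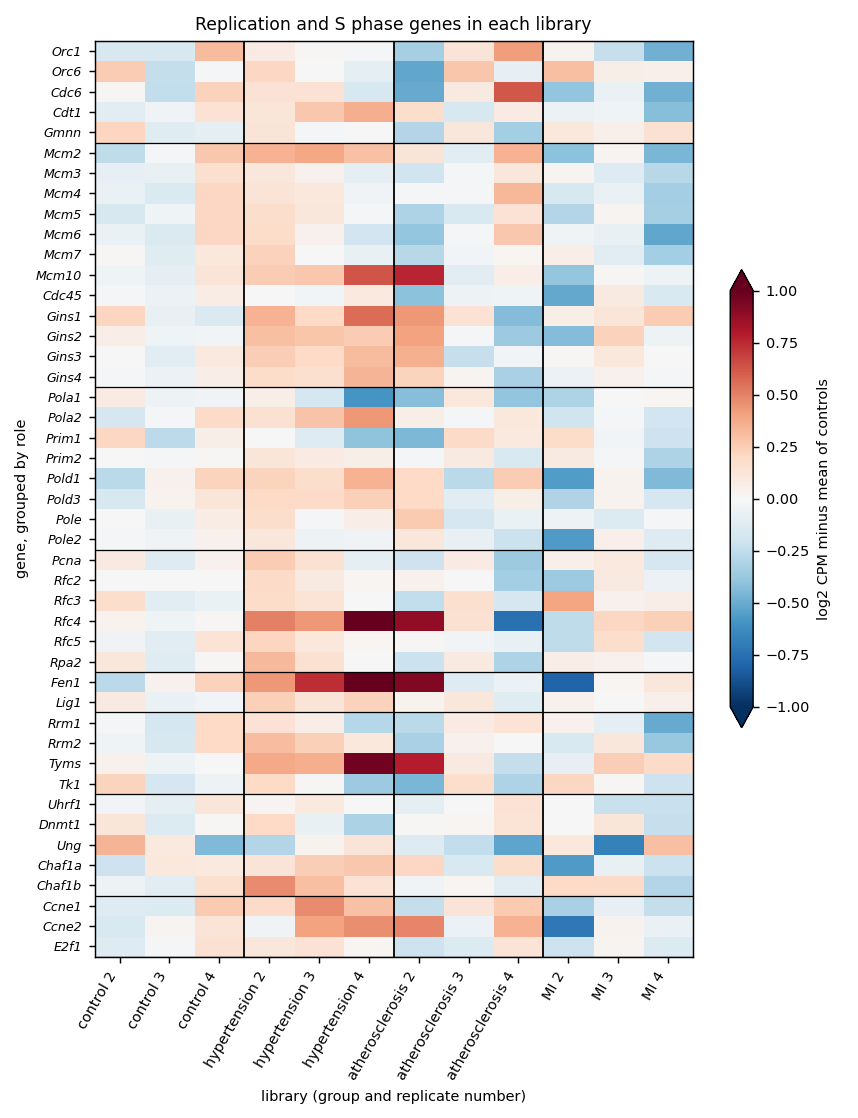
Log2 CPM of each of the 45 genes in each of the 12 libraries, minus the mean of the 3 controls, with genes grouped by role (horizontal lines) and libraries by group (vertical lines). Red is above and blue below the control mean. The hypertension columns are mostly red, and *Rfc4*, *Fen1*, *Tyms* and *Mcm10* stand out in hypertension replicate 4 and atherosclerosis replicate 2.

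In 13 of 45 members (28.9%) every hypertension library lay above every control, against 9.02% of all genes, and in no member did every hypertension library lie below (7.81% of all genes). The 13 were *Mcm2*, *Mcm10*, *Gins2*, *Gins3*, *Gins4*, *Prim2*, *Pold3*, *Rfc2*, *Rfc4*, *Fen1*, *Lig1*, *Tyms* and *Chaf1a*. Without control replicate 4 the number was 25 (15.4% of all genes), and without each other library it was 13 to 17. A count without overlap can hardly fall when a library is left out, because fewer values remain that could overlap. In atherosclerosis no member had every library above every control (5.06% of all genes) or below (4.45%), and the same held in MI (4.27% above and 4.59% below). The number of members above 0 in hypertension was 28 without control replicate 3. Markers of other cells moved with this comparison. The summed maturing neutrophil markers were lower in every hypertension library (26010 to 41800 CPM) than in every control (48780 to 65890 CPM), with 0 of the 10 genes called. Of the 14 erythroid precursor markers, 3 were higher at an unadjusted p under 0.05 by edgeR (21.4%, against 2.08% of all genes) and none lower. In 3 of them every hypertension library lay above every control (21.4%, against 9.02% of all genes). The list's summed level overlapped (17090 to 24630 against 17200 to 29360 CPM) and 0 were called. The erythroid transcription factor genes *Gata1* and *Klf1*, named after their values were seen, were at 0.46 ± 0.14 (edgeR unadjusted p = 0.00743) and 0.73 ± 0.31 (edgeR unadjusted p = 0.0374). The part of either list in the result was not tested. In MI against controls all 12 B cell precursor markers were below 0 (median -0.70), and 0 were called. At an unadjusted p under 0.05 by edgeR, 7 were lower (58.3%, against 1.57% of all genes). In 6 (50%) every MI library lay below every control, against 4.59% of all genes. The part of that list in the MI values was not tested.

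Among the licensing genes, all 5 had a log2 fold change above 0 in hypertension, none of which passed the test. Values are given in that same order of replicates, after TMM normalisation. *Orc1*, the largest subunit of the origin recognition complex, stood at 20.0, 19.9 and 27.7 CPM in controls, 23.6, 22.5 and 21.9 in hypertension, 17.7, 24.4 and 29.8 in atherosclerosis and 22.8, 18.9 and 16.0 in MI. *Cdc6*, which joins that complex at the origin, stood at 172, 143 and 199.8 CPM in controls, 188, 188 and 152 in hypertension, 119.6, 181 and 261 in atherosclerosis and 129.5, 162 and 122 in MI. The 4 groups overlapped for both genes, and *Cdc6* was most variable in atherosclerosis, where replicate 4 was the highest of all 12 libraries. *Cdt1*, the partner of CDC6 in loading the helicase, was measured at 131, 138 and 156 CPM in controls, 154, 170.4 and 182 in hypertension, 159.6, 127 and 150 in atherosclerosis and 136, 137 and 106 in MI. Every MI library was below every hypertension library for *Cdt1*, and its log2 fold change against controls was 0.25 ± 0.15 in hypertension and -0.17 ± 0.15 in MI (± SE). *Gmnn* encodes geminin, which binds CDT1 and blocks a further round of licensing, and stood at 145, 115 and 118 CPM in controls, 137, 124 and 126 in hypertension, 102, 136 and 99.1 in atherosclerosis and 134, 129.8 and 139 in MI. Its groups overlapped, with 0.04 ± 0.15 in hypertension and 0.09 ± 0.15 in MI. *Orc6*, another subunit of the recognition complex, differed from controls by 0.03 in hypertension and 0.13 in MI.

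Of the helicase genes, the largest role, all 12 were above 0 in hypertension, with a median log2 fold change of 0.16, and 10 of 12 were below 0 in MI, with a median of -0.13. *Mcm2*, a subunit of the hexamer, stood at 274, 322 and 393 CPM in controls, 415, 426 and 399 in hypertension, 357, 301 and 415 in atherosclerosis and 245, 333 and 238 in MI. The hypertension libraries were all above the controls and above the MI libraries, while atherosclerosis overlapped every group. Against controls the log2 fold change of *Mcm2* was 0.33 ± 0.19 in hypertension (edgeR unadjusted p = 0.104), 0.12 ± 0.19 in atherosclerosis and -0.28 ± 0.19 in MI (edgeR unadjusted p = 0.161). *Mcm5*, another ring subunit, stood at 342, 370.1 and 442 CPM in controls, 433, 414 and 376 in hypertension, 309, 345 and 423 in atherosclerosis and 312, 390.3 and 304 in MI. Here all groups overlapped, with 0.08 ± 0.17 in hypertension and -0.20 ± 0.17 in MI. The remaining ring subunits lay close to controls in hypertension, at 0.02 for *Mcm3*, 0.06 for *Mcm4*, 0.01 for *Mcm6* and 0.06 for *Mcm7*. In MI the same 4 genes were at -0.13, -0.19, -0.20 and -0.12. *Mcm2* therefore had the largest value of the ring subunits in hypertension, although no test compared the subunits with each other.

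*Mcm10*, which helps to activate the loaded helicase, stood at 67.8, 65.6 and 76.2 CPM in controls, 83.0, 84.1 and 108 in hypertension, 118, 64.8 and 72.8 in atherosclerosis and 53.2, 70.3 and 67.4 in MI. It was above every control in hypertension (0.39 ± 0.21, edgeR unadjusted p = 0.0903), and the highest single value belonged to atherosclerosis replicate 2. Without that library its fold change in atherosclerosis turned from 0.29 to -0.01. *Cdc45*, the helicase cofactor, stood at 82.0, 79.9 and 87.5 CPM in controls, 83.2, 81.5 and 88.8 in hypertension, 62.6, 80.2 and 80.6 in atherosclerosis and 58.1, 88.5 and 74.8 in MI. Its hypertension libraries overlapped the controls, and the lowest values were in MI replicate 2 and atherosclerosis replicate 2. *Gins2*, a subunit of the GINS tetramer, stood at 61.2, 56.6 and 57.1 CPM in controls, 71.7, 70.4 and 69.5 in hypertension, 77.1, 57.5 and 45.2 in atherosclerosis and 43.2, 68.5 and 56.2 in MI. All hypertension values exceeded all controls with little spread (70.5 ± 1.10 against 58.3 ± 2.497 CPM, mean ± SD, n = 3), while the atherosclerosis libraries ran from below the controls to above them. The other GINS subunits were at 0.37 ± 0.20 (*Gins1*), 0.25 ± 0.15 (*Gins3*) and 0.23 ± 0.15 (*Gins4*) in hypertension, the last 2 without overlap with controls, and at 0.14, 0.04 and -0.01 in MI.

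Polymerase and primase genes went both ways in hypertension, with 6 of 8 above 0, and all 8 were below 0 in MI, where the median was -0.12. *Pola1*, the catalytic subunit of polymerase alpha, stood at 76.5, 69.6 and 70.6 CPM in controls, 75.0, 63.8 and 47.9 in hypertension, 53.7, 77.6 and 54.9 in atherosclerosis and 58.4, 71.9 and 73.0 in MI. The lowest library was hypertension replicate 4, and the log2 fold change was -0.21 ± 0.19 in hypertension and -0.22 ± 0.19 in atherosclerosis. Its accessory subunit *Pola2* went the other way, at 66.5, 73.4 and 85.0 CPM in controls, 83.0, 91.0 and 101 in hypertension, 77.8, 73.5 and 80.3 in atherosclerosis and 65.0, 73.6 and 65.5 in MI. For *Pola2*, hypertension was at 0.29 ± 0.14 (edgeR unadjusted p = 0.0578), with 1 control between the hypertension values, and every hypertension library was above every MI library. The primase catalytic subunit *Prim1*, which makes the RNA primers, stood at 97.99, 70.8 and 88.3 CPM in controls, 85.1, 77.6 and 64.4 in hypertension, 62.3, 96.8 and 90.7 in atherosclerosis and 96.2, 83.6 and 73.7 in MI. As for *Pola1*, its lowest values were in hypertension replicate 4 and atherosclerosis replicate 2, and its difference in hypertension was -0.18 ± 0.19. *Prim2*, the large primase subunit, was at 0.09 ± 0.14, with all hypertension libraries above the controls by a small margin (84.9 ± 2.03 against 79.9 ± 0.598 CPM, mean ± SD, n = 3).

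*Pold1*, the catalytic subunit of polymerase delta, stood at 125, 155 and 176 CPM in controls, 176, 170 and 192 in hypertension, 173, 125 and 179.8 in atherosclerosis and 102, 155 and 111 in MI. It overlapped between controls and every disease, at 0.23 ± 0.20 in hypertension and -0.31 ± 0.20 in MI (edgeR unadjusted p = 0.14). Its partner *Pold3* was at 0.20 ± 0.14 in hypertension, where every library exceeded every control, and -0.14 ± 0.14 in MI. *Pole*, which copies the leading strand, was among the least variable members, at 32.7, 31.2 and 34.6 CPM in controls, 37.1, 32.4 and 34.3 in hypertension, 39.4, 29.2 and 31.3 in atherosclerosis and 31.7, 29.9 and 32.5 in MI. None of its groups separated, and the differences were 0.07 ± 0.14, 0.02 ± 0.14 and -0.07 ± 0.14 in hypertension, atherosclerosis and MI. *Pole2*, its second subunit, differed by 0.01 in hypertension and -0.19 in MI, where replicate 2 was the lowest library.

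Clamp and clamp loader genes were above 0 in hypertension for 6 of 6 and split 3 to 3 in MI. *Pcna*, the sliding clamp, stood at 175, 149.9 and 169 CPM in controls, 196, 182 and 154 in hypertension, 142, 174 and 128 in atherosclerosis and 169.8, 175 and 146 in MI. Hypertension overlapped controls (0.11 ± 0.16), as did MI (-0.01 ± 0.16, 95% interval -0.37 to 0.36). *Rfc3*, a loader subunit, stood at 67.0, 55.0 and 56.8 CPM in controls, 67.3, 65.2 and 59.1 in hypertension, 50.1, 66.4 and 52.8 in atherosclerosis and 78.1, 61.2 and 62.0 in MI. It was the member with the highest MI difference from controls, at 0.17 ± 0.16, with its highest library in MI replicate 2, and it overlapped controls. *Rfc4*, another loader subunit, behaved differently from the rest of its complex, at 255, 242 and 252 CPM in controls, 353, 338 and 524 in hypertension, 460.2, 277 and 149 in atherosclerosis and 209.6, 288 and 294 in MI. The controls lay within a narrow range and every hypertension value exceeded it (0.70 ± 0.32, edgeR unadjusted p = 0.0463), while the atherosclerosis libraries included both one of the highest values and the lowest. *Rfc2* and *Rfc5* were at 0.10 ± 0.16 and 0.11 ± 0.15 in hypertension. *Rpa2*, a subunit of the single-strand binding protein, stood at 179, 152 and 167 CPM in controls, 207, 184 and 165 in hypertension, 143, 176 and 134 in atherosclerosis and 173, 171 and 164 in MI. It overlapped controls in all 3 diseases, and its value in hypertension was 0.16 ± 0.15.

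**Figure D3:**
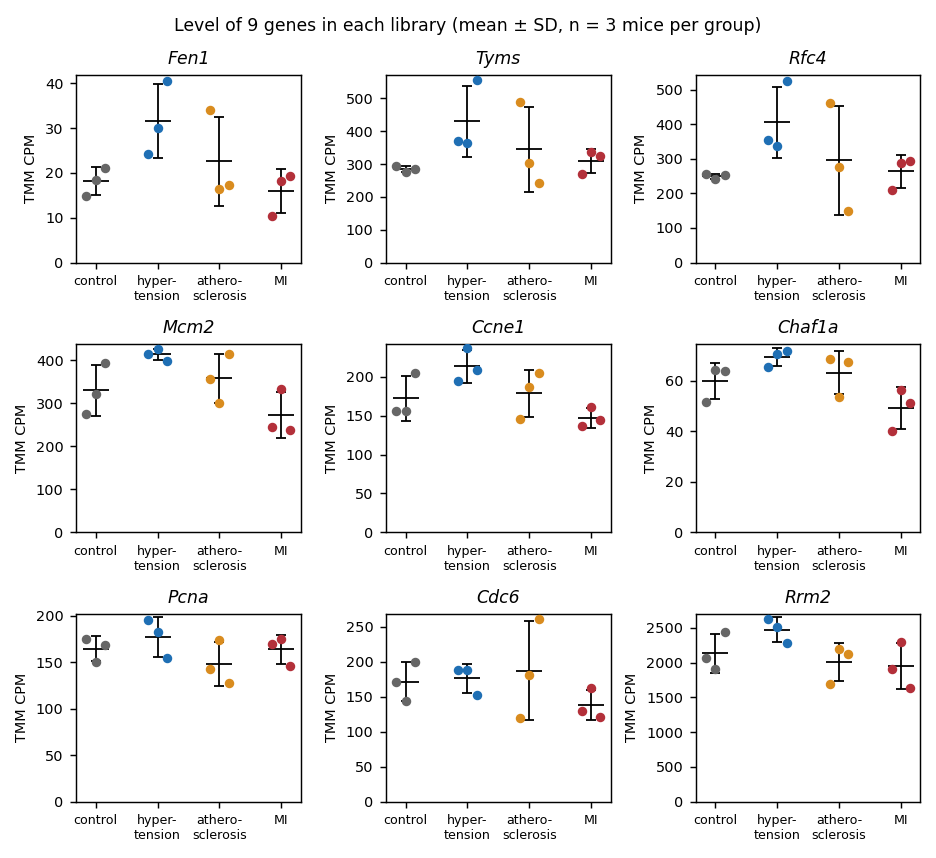
TMM-normalised CPM of 9 replication genes in each library, with dots for mice and bars for mean ± SD (n = 3 per group). *Fen1*, *Tyms* and *Rfc4* are higher in all hypertension libraries than in controls, with 1 high atherosclerosis library, while the groups overlap for *Pcna*, *Cdc6* and *Rrm2* between controls and each disease.

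Lagging strand maturation held the member with the smallest p in hypertension. *Fen1*, the nuclease that trims Okazaki fragments, stood at 14.9, 18.5 and 21.1 CPM in controls, 24.3, 30.0 and 40.5 in hypertension, 34.1, 16.4 and 17.3 in atherosclerosis and 10.3, 18.2 and 19.4 in MI. All hypertension values were above all controls, at 0.80 ± 0.31 (edgeR unadjusted p = 0.0228), and atherosclerosis replicate 2 also lay above the controls, where the group value was 0.32 ± 0.31. Without that library the atherosclerosis value was -0.10. These values rest on the 383 exonic bases that could be counted. *Lig1*, the ligase that seals the fragments, was the steadiest gene together with *E2f1*, at 221, 198 and 204 CPM in controls, 245, 227 and 243 in hypertension, 213, 224 and 191 in atherosclerosis and 214, 208 and 215 in MI. Hypertension was above controls in every library by a small amount (0.20 ± 0.13), and MI was at 0.03 ± 0.13.

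Of the genes that supply nucleotides, *Tyms* was high in the same libraries as *Fen1* and *Rfc4*. *Tyms* encodes thymidylate synthase and stood at 294, 275 and 285 CPM in controls, 369, 366 and 555 in hypertension, 490.1, 302 and 242 in atherosclerosis and 268, 337 and 324 in MI. Its hypertension values exceeded every control (0.59 ± 0.24, edgeR unadjusted p = 0.0299), and the atherosclerosis value of 0.27 became -0.06 without replicate 2. The summed B cell precursor markers were highest in those libraries too, at 883.6 CPM in hypertension replicate 4 and 1162 CPM in atherosclerosis replicate 2, against 510.4 to 748.9 CPM in controls. That sum rested on *Ebf1* and *Pax5*, which encode transcription factors of B cell development and were picked out after their values were seen. *Ebf1* stood at 322 and *Pax5* at 113 CPM in hypertension replicate 4, and at 529 and 207 CPM in atherosclerosis replicate 2, while the highest controls were at 109.7 and 42.9 CPM. The other 10 markers summed to 448 and 426 CPM in those libraries, within the 414 to 596 CPM of the controls. None of the 12 was called in hypertension or atherosclerosis against controls, and the part of *Ebf1* and *Pax5* in the result was not tested. Without hypertension replicate 4 no member reached an unadjusted p under 0.05 in hypertension by edgeR (1.45% of all genes), and without control replicate 2 none did either (3.08%), while 1 did without control replicate 3 (1.85%).

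*Rrm2*, the small subunit of ribonucleotide reductase, stood at 2062, 1900 and 2443 CPM in controls, 2630, 2510 and 2279 in hypertension, 1695, 2191 and 2129 in atherosclerosis and 1909, 2294 and 1637 in MI. Hypertension overlapped controls (0.21 ± 0.19), as did MI (-0.13 ± 0.19). Its partner *Rrm1* was at -0.02 ± 0.19 in hypertension and -0.18 ± 0.19 in MI. *Tk1*, the thymidine kinase of the salvage route, was unlike *Tyms*, at 182, 139 and 151 CPM in controls, 180, 157 and 122 in hypertension, 114, 177 and 126 in atherosclerosis and 180.4, 158 and 135 in MI. It was lowest where *Tyms* was highest, in hypertension replicate 4 and atherosclerosis replicate 2, and differed from controls by -0.04 ± 0.20 in hypertension and 0.00 ± 0.20 in MI.

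The chromatin and repair genes gave small values of both signs. *Uhrf1*, which reads hemimethylated DNA behind the fork, stood at 133, 127 and 147 CPM in controls, 138, 145 and 135 in hypertension, 126, 135 and 149.7 in atherosclerosis and 136, 116 and 116 in MI. *Dnmt1*, the maintenance methyltransferase that it recruits, stood at 215, 180.1 and 199.8 CPM in controls, 228, 188 and 159 in hypertension, 199.9, 201 and 218 in atherosclerosis and 198, 216 and 169 in MI. Both overlapped across the 4 groups, with hypertension at 0.04 ± 0.13 and -0.05 ± 0.16. *Ung*, which removes uracil from DNA, was low throughout, at 4.93, 4.17 and 2.87 CPM in controls, 3.18, 3.98 and 4.26 in hypertension, 3.56, 3.29 and 2.699 in atherosclerosis and 4.20, 2.43 and 4.81 in MI. Its standard error was among the largest of the members, and its interval in atherosclerosis (-1.01 to 0.36) reached beyond a 2-fold decrease. *Chaf1a*, the large subunit of the histone chaperone that assembles nucleosomes on new DNA, stood at 51.6, 64.0 and 63.8 CPM in controls, 65.2, 70.7 and 71.8 in hypertension, 68.6, 53.6 and 67.4 in atherosclerosis and 40.1, 56.4 and 51.3 in MI. It had the smallest p of any member in MI against controls (-0.28 ± 0.16, edgeR unadjusted p = 0.108), although 1 MI library lay among the controls, and in hypertension it exceeded every control (0.21 ± 0.16). *Chaf1b*, its partner subunit, stood at 104, 99.5 and 120.2 CPM in controls, 149, 132 and 119 in hypertension, 105, 109 and 99.0 in atherosclerosis and 123, 123 and 87.8 in MI. It was highest in hypertension replicates 2 and 3 and differed from controls by 0.31 ± 0.16 there and 0.05 ± 0.16 in MI.

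The regulators of S phase entry were above 0 in hypertension and below 0 in MI for 3 of 3. *Ccne1* encodes cyclin E1, which drives entry into S phase with CDK2, and stood at 156, 156 and 205 CPM in controls, 195, 237 and 209 in hypertension, 145, 187 and 205 in atherosclerosis and 136, 162 and 145 in MI. Control replicate 4 lay within the hypertension range, where the difference was 0.31 ± 0.17, and MI was at -0.23 ± 0.17. The related *Ccne2* stood at 136, 153 and 165 CPM in controls, 148, 199.5 and 208 in hypertension, 212, 145 and 192 in atherosclerosis and 92.1, 155 and 144 in MI. It was more variable, with its lowest value in MI replicate 2 and its highest in atherosclerosis replicate 2, and the log2 fold changes were 0.29 ± 0.22, 0.27 ± 0.22 and -0.22 ± 0.22 in hypertension, atherosclerosis and MI. *E2f1*, the transcription factor upstream of many of these genes, stood at 104, 112 and 126 CPM in controls, 123, 126 and 115 in hypertension, 98.3, 104 and 125 in atherosclerosis and 98.5, 116 and 104 in MI. Its groups overlapped, and its 95% intervals ran from -0.24 to 0.41 in hypertension and from -0.43 to 0.22 in MI.

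The diseases were then compared directly, which tests their difference without the controls. MI against hypertension gave the widest separation, although no member passed the adjusted threshold by the quasi-likelihood test of edgeR (lowest Benjamini-Hochberg adjusted p 0.529, 0% of all genes called) or by the likelihood-ratio test and DESeq2. Of the 45 members, 10 (22.2%) had an unadjusted p under 0.05 by edgeR, against 8.41% of all genes, and all 10 were lower in MI. They were *Mcm2*, *Fen1*, *Ccne1*, *Pola2*, *Chaf1a*, *Pold1*, *Cdt1*, *Mcm10*, *Pold3* and *Ccne2*. The log2 fold change was -0.60 ± 0.19 for *Mcm2* (edgeR unadjusted p = 0.00663), -0.98 ± 0.31 for *Fen1* (edgeR unadjusted p = 0.00742) and -0.54 ± 0.17 for *Ccne1* (edgeR unadjusted p = 0.0079). The other 7 ran from -0.54 for *Pold1* to -0.34 for *Pold3*.

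In 16 of 45 members (35.6%) every MI library lay below every hypertension library, against 10.2% of all genes, and in no member did every MI library lie above (9.34% of all genes). Besides 9 of the 10 genes just named, all but *Ccne2*, these were *Mcm4*, *Gins2*, *Gins3*, *Gins4*, *Rfc4*, *Lig1* and *Tyms*. In this comparison 8 of 45 members had a log2 fold change above 0, against 50.8% of all genes, and the median was -0.21 against 0.01. All 12 helicase genes were below 0 here. These counts moved with single libraries. Without hypertension replicate 4 or without MI replicate 2 the number at an unadjusted p under 0.05 by edgeR was 6 (4.32% and 4.67% of all genes). The number without overlap, which can hardly fall with fewer libraries, was 28 without hypertension replicate 4 (14% of all genes) and 25 without MI replicate 3 (16.4%). The neutrophil precursor and maturing neutrophil markers were higher in MI (16810 to 22540 and 50780 to 84390 CPM summed) than in hypertension (13390 to 15460 and 26010 to 41800 CPM) in every library, the B cell precursor markers lower (224 to 488.8 against 584 to 883.6 CPM), with 0 genes of the 3 lists called. Of the 14 erythroid precursor markers, 5 were lower in every MI library than in every hypertension library (35.7%, against 10.2% of all genes). At an unadjusted p under 0.05 by edgeR, 3 were lower (21.4%, against 4.23% of all genes), and 0 were called. Among them *Gata1* was at -0.56 ± 0.14 (edgeR unadjusted p = 0.0019) and *Klf1* at -1.09 ± 0.32 (edgeR unadjusted p = 0.00421), while the summed level of the list overlapped (16840 to 31220 CPM in MI). The part of these 4 lists in the result was not tested.

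**Figure D4:**
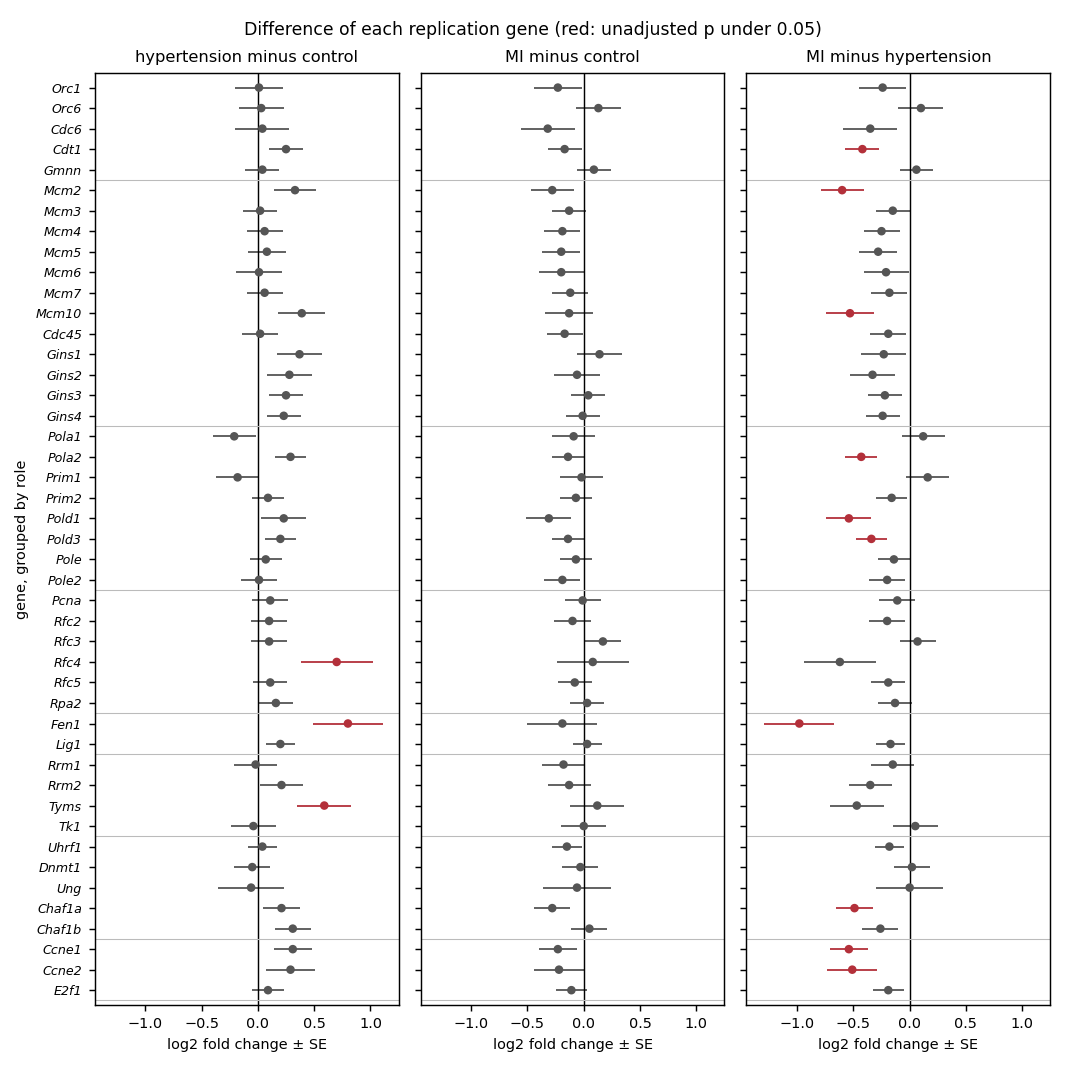
Log2 fold change ± SE of each replication gene from edgeR in hypertension minus control, MI minus control and MI minus hypertension, with genes grouped by role. Red marks an unadjusted p under 0.05, reached by 3, 0 and 10 of the 45 genes; the points lie mostly right of 0 in the first panel and left of 0 in the others.

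Comparisons with atherosclerosis separated fewer members. Against atherosclerosis, MI had 2 members at an unadjusted p under 0.05 by edgeR (12.7% of all genes), *Ccne2* at -0.49 ± 0.22 (edgeR unadjusted p = 0.0412) and *Chaf1a* at -0.36 ± 0.16 (edgeR unadjusted p = 0.045), followed by *Mcm2* at -0.39 ± 0.19. No member passed the Benjamini-Hochberg adjusted threshold in that comparison (lowest adjusted p 0.37 by edgeR, 0.269% of all genes called). *Mcm4* was the only member in which every MI library lay below every atherosclerosis library (7.44% of all genes), with 189, 202 and 167 against 209.6, 210.1 and 267 CPM. Hypertension against atherosclerosis had 1 member at an unadjusted p under 0.05 by edgeR (5.94% of all genes), *Chaf1b* at 0.36 ± 0.16 (edgeR unadjusted p = 0.0448). *Rpa2* at 0.29 ± 0.15 and *Pola2* at 0.25 ± 0.14 followed, and none passed the adjusted threshold (lowest Benjamini-Hochberg adjusted p 0.833 by edgeR, 0.0625% of all genes called). In 6 of 45 members (13.3%), *Cdc45*, *Pola2*, *Rfc5*, *Lig1*, *Rrm2* and *Chaf1b*, every hypertension library exceeded every atherosclerosis library, against 5.08% of all genes. All 9 stem and progenitor markers were below 0 in the same comparison (median -0.43), and 0 were called. Of the 9, 6 were lower in every hypertension library than in every atherosclerosis library, against 5.81% of all genes. At an unadjusted p under 0.05 by edgeR, 3 were lower, against 3.86% of all genes. The 4 markers of the sort gate were also below 0, 2 of them without overlap (50%, against 5.81% of all genes). The sort selected for *Pecam1* and *Ly6a* (SCA-1) and against *Ptprc* and *Itga2b* (CD41). The 2 without overlap were *Pecam1* and *Itga2b*, so they belong to opposite sides of the gate. The part of these markers in the result was not tested. From the marker lists, *Gata2*, a stem and progenitor transcription factor gene, and *C1qa*, a complement gene of macrophages, were called. By edgeR, *Gata2* rose in atherosclerosis against controls by 1.05 ± 0.17 (adjusted p = 0.0342) and was lower in MI than in atherosclerosis, at -0.92 ± 0.17 (adjusted p = 0.041). *C1qa* rose by 0.97 ± 0.16 (adjusted p = 0.0342 by edgeR) and was at -0.94 ± 0.16 in MI against atherosclerosis (adjusted p = 0.0344). The median member was at 0.17 in this comparison and at -0.09 in MI against atherosclerosis. The likelihood-ratio test and DESeq2 called 0 members in both.

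The members' values were also set beside the E2F letters. In hypertension against controls the 16 members with a match had a median log2 fold change of 0.05 and the 20 with a window but no match 0.18. In MI against hypertension the medians were -0.21 and -0.23, with ranges of -0.54 to 0.12 and -0.98 to 0.16. These values describe the 2 sets and carry no test.

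Other genes of the cell cycle were counted from lists that share no gene with the 45. Of 40 further replication genes, 23 were above 0 and 17 below in hypertension against controls, with a median of 0.05 and 0 called. The first pair of the list, the origin recognition subunits *Orc2* and *Orc3*, differed by 0.11 and -0.16. Of 20 genes of G2 and M phase, 14 were above 0 and 6 below in hypertension (median 0.10, 0 called), and 1 above and 19 below in MI against hypertension (median -0.21, 0 called), where the further replication genes split 20 to 20 (median 0.01). The first pair of the G2 and M phase list, *Mki67*, a proliferation marker, and the topoisomerase *Top2a*, were at -0.08 ± 0.22 and -0.12 ± 0.15 in hypertension against controls. In 5 of the 20 (25%) every hypertension library lay above every control, against 28.9% of the members and 9.02% of all genes. In 8 of the 20 (40%) every MI library lay below every hypertension library, against 35.6% of the members and 10.2% of all genes. For the 40 further replication genes these shares were 10% and 17.5%. Of 12 listed cell cycle inhibitors 11 could be tested, of which 7 were above 0 in hypertension and 0 were called. *Cdkn1a*, which encodes the CDK inhibitor p21, stood at 28.6, 39.5 and 27.2 CPM in controls and 47.6, 41.8 and 48.0 CPM in MI. Every MI library was above every control, at 0.53 ± 0.18 (edgeR unadjusted p = 0.0123), and this did not pass the adjustment. *Btg2*, from the same list, was lower in every MI library than in every control, at -0.44 ± 0.17 (edgeR unadjusted p = 0.0213). Of the 11 inhibitors, 4 were above 0 and 7 below in MI against controls (median -0.10, 0 called). The share without overlap was 9.09% above controls and 9.09% below, against 4.27% and 4.59% of all genes. *Cdkn1b* (p27) was at 0.00 ± 0.26 in MI and -0.23 ± 0.26 in hypertension.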

How the data were processed

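RNA-seq was measured in 12 libraries of sorted bone marrow cells, 3 mice per group. According to the methods, marrow was depleted of lineage-positive cells and TER-119- CD41- CD45- CD31hi SCA-1+ cells were sorted, and poly(A) libraries were made with a directional kit. The authors aligned reads to GRCm38.p6 with STAR 2.7.3a (per the labels) and deposited raw counts per Ensembl gene. Which strand column was taken is not given in the sources used here, and its effect is described with the levels. Symbols, exons and coordinates came from GENCODE M21 (55240 of 55421 genes matched, 181 not). Counts were filtered with filterByExpr, TMM normalised and fitted over all 12 libraries with edgeR 4.0.16 (quasi-likelihood test, two-sided, R 4.3.3), with Benjamini-Hochberg adjustment over 15999 genes. The study's methods name edgeR's likelihood-ratio test, which was run as an alternative, as was DESeq2 1.42.0. The script was tested on simulated data. Intervals are 95% intervals of the log2 fold change, from its standard error and a t distribution with 8 degrees of freedom. They were built apart from the edgeR test and can include 0 where its unadjusted p is under 0.05. For *Rfc4* in hypertension against controls the interval was -0.03 to 1.43, at an edgeR unadjusted p of 0.0463. The 45 genes and the other lists were chosen with earlier results of these data known. Genes given in full were listed anchors of each role plus, per comparison, the 3 members with the smallest p, from the cell cycle lists the first pair, as none was called, and from the marker lists every gene called, with the remaining markers given by sums and counts. Reads that overlap more than 1 gene are not counted, and no molecular identifiers were used. Counts of members without overlap, and their values without single libraries, were added after the data were seen. Library r values lay between 0.939 and 0.988 on log2 CPM.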

Additional observations from a re-analysis of the deposited data

How the results depend on the processing

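No member was called under the likelihood-ratio test, DESeq2, RLE size factors, a minimum of 10 counts in every library, a fit of only the 2 groups compared, the removal of immunoglobulin and hemoglobin genes, or the removal of any single library. With no filter on low counts (36003 genes tested), 1 member was called in hypertension against controls (0.472% of all genes, against 0% with the filter) and 1 in MI against hypertension (1.17%, against 0%) by edgeR. This was *Fen1* in both, at 0.80 (Benjamini-Hochberg adjusted p = 0.0492 by edgeR) and -1.01 (adjusted p = 0.00105), and the cause was not tested. With the filter, 3 members had an unadjusted p under 0.05 by edgeR in hypertension (3.71% of all genes) and 10 in MI against hypertension (8.41%). The number was 2 in MI against atherosclerosis (12.7% of all genes) and 1 in hypertension against atherosclerosis (5.94%). It was 0 in atherosclerosis (5.97%) and in MI (2.8%) against controls.

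The median log2 fold change of the members stayed between 0.10 and 0.12 in hypertension, -0.02 and 0 in atherosclerosis, -0.13 and -0.10 in MI, -0.25 and -0.21 in MI against hypertension, -0.10 and -0.08 in MI against atherosclerosis and 0.16 and 0.19 in hypertension against atherosclerosis over the 7 other settings. Leaving out single libraries gave 0.06 to 0.18, -0.03 to 0.05, -0.18 to -0.06, -0.28 to -0.19, -0.17 to -0.02 and 0.14 to 0.17 in the same order. Among 1134 values of single members 72 changed sign, and 3 of these had exceeded their standard error. They belonged to atherosclerosis without replicate 2, where *Mcm10* was at -0.01, *Fen1* at -0.10 and *Tyms* at -0.06, and leaving out each library in turn gave -0.01 to 0.45, -0.10 to 0.50 and -0.06 to 0.47.

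Leaving out single libraries gave 13 to 25 members with every hypertension library above every control (12% to 15.4% of all genes), 0 to 4 at an unadjusted p under 0.05 (1.45% to 3.71%) and 28 to 41 above 0 (48% to 49.5%). In MI against hypertension it gave 18 to 28 with every library lower (13.3% to 16.9%), 6 to 13 (4.32% to 10.2%) and 5 to 8 (48.6% to 51.8%). The counts without overlap can hardly fall in this check, because fewer values remain that could overlap.

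Same-numbered libraries of different groups did not deviate together (r of -0.282 to 0.296 over 18 pairs), so the numbers were not taken to pair mice. Over 36 pairs of different number r ran from -0.299 to 0.39. The highest was between hypertension replicate 4 and atherosclerosis replicate 2, in which *Rfc4*, *Fen1*, *Tyms* and *Mcm10* stood out, and its cause was not tested. A fit with the replicate number as a block called 0 members in every comparison. The level of 3 counts (0.119 to 0.176 CPM) lay below every member in every library, of which the lowest was 2.43 CPM, and the common dispersion between mice was 0.0634.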
